A study of Mus musculus with 12 samples.

Results

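Imprinted genes linked to the quiescence of stem cells, namely H19, Igf2, Igf2r, Dlk1, Meg3, Grb10, Peg3, Ndn, Mest, and Gnas, were followed in Lin-cKit+ (LK) bone marrow cells of C57BL/6 mice. They were taken by name, and all 10 of 10 are among the 55291 genes of the count table. LK cells are sorted as negative for lineage markers of mature blood cells and positive for the receptor cKit, and are mainly progenitors with some hematopoietic stem cells (HSCs) among them. RNA was sequenced from 12 individual mice at 12 months of age, 3 of each genotype: WT, Kdm6bΔ/+, Asxl1Y588XTg, and Asxl1Y588XTg Kdm6bΔ/+. Asxl1Y588XTg mice carry a transgene for a truncated ASXL1 on top of their own Asxl1 alleles. In Kdm6bΔ/+ mice 1 allele of Kdm6b, which encodes a demethylase of the repressive histone mark H3K27me3, was deleted by Mx1Cre, a recombinase that pI:pC switches on through interferon and that is not limited to blood cells. The promoter of the transgene, and whether the RNA-Seq mice without the deletion carried Mx1Cre or received pI:pC, are not given in the sources used here. The comparisons ask how the genes differed between Asxl1Y588XTg and WT cells, and how they differed with the loss of 1 Kdm6b allele on each background. The comparison of Asxl1Y588XTg with WT and that of the deletion on the Asxl1Y588XTg background share the same 3 Asxl1Y588XTg libraries.

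An imprinted gene is read mainly from 1 parental copy. Which copy is read is set by DNA methylation laid down in the egg or the sperm, which marks the silent copy at some regions and the active copy at others. Many such genes control fetal growth. In blood, H19, Dlk1, Meg3, Igf2, Ndn, Peg3, and the cell cycle inhibitor Cdkn1c are known for being higher in long-term HSCs than in the progenitors made from them. H19 and Meg3 are long noncoding RNAs of the maternal copy, and each shares its region with a paternally expressed protein gene, Igf2 and Dlk1. Igf2 is a growth factor, Igf2r the receptor that takes it up for degradation, and Grb10 an adaptor that restrains insulin and IGF receptors. Dlk1 is a transmembrane protein of the Notch ligand family. Ndn (necdin) restrains the cell cycle, Peg3 is a zinc finger protein, Mest resembles a hydrolase, and Gnas encodes the stimulatory G protein alpha subunit.

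The genes lie in 8 imprinted regions, with positions in mm10. H19 (chr7:142575529-142578143) and Igf2 (chr7:142650766-142666816) are neighbours on the minus strand, and Dlk1 (chr12:109452823-109463336) and Meg3 (chr12:109541001-109571726) on the plus strand. Ndn (chr7:62346569-62350262) and Peg3 (chr7:6703892-6730431) are on the same chromosome at a distance from each other. Grb10 (chr11:11930508-12038683), Mest (chr6:30723547-30748465), Gnas (chr2:174284320-174346744), and Igf2r (chr17:12682406-12769664) are in regions of their own. By the GENCODE vM21 exons, 62.8% of the exon bases of Igf2 are shared with another gene of the same strand. Antisense genes share 23.1% of those of Mest and 22% of those of Gnas, and genes of either strand 9.1% of those of H19 and 8.3% of those of Meg3. Dlk1, Ndn, Peg3, Grb10, and Igf2r share none. The strand used for counting is not given in the sources used here, so reads in the shared bases cannot be assigned with certainty.

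The promoters of Dlk1, Meg3, Ndn, and Peg3 are shown because these are the members whose counts were higher in all 3 Asxl1Y588XTg libraries than in every WT library. Each is the stretch of 250 bases before the RefSeq start (GRCm38.p6), written 5′ to 3′ on the strand of the gene, with each CpG, the dinucleotide that carries DNA methylation, in capitals. The windows are chr12:109452573-109452822 for Dlk1 and chr12:109540746-109540995 for Meg3, both on the plus strand, chr7:62348027-62348276 on the plus strand for Ndn, and chr7:6730420-6730669 on the minus strand for Peg3. The Ndn window lies inside the exon of the GENCODE gene, which starts upstream of the RefSeq start. The annotations thus place the start of Ndn differently, and its window may not be a promoter.
Dlk1: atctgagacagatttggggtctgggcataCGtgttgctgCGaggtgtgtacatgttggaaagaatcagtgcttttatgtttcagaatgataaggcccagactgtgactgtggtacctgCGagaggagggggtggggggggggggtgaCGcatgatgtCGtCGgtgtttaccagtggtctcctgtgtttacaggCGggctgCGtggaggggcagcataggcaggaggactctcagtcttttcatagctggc
Meg3: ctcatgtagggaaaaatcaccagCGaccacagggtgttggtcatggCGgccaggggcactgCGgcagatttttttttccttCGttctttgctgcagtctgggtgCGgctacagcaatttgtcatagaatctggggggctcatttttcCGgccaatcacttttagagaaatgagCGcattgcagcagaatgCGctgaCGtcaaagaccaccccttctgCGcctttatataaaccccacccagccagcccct
Ndn: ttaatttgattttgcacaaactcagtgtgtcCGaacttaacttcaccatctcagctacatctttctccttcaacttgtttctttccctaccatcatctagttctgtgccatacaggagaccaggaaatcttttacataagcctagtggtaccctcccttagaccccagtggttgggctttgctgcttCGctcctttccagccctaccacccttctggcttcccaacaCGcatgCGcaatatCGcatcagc
Peg3: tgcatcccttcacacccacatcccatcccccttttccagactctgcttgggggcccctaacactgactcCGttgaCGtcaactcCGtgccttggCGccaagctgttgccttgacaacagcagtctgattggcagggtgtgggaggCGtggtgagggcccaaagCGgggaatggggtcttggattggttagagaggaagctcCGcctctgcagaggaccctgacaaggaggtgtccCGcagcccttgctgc
These windows hold 8, 10, 5, and 8 CpGs, beside a median of 6 over 32841 RefSeq windows of the same length. The first windows of Igf2r and Grb10, which had the highest levels of the members, hold 27 and 40 CpGs, and only 1.3% of all windows hold as many as that of Grb10. For both windows the bases just after the start were found in no GENCODE vM21 transcript of the gene. The second Grb10 window holds 8 CpGs. Gnas windows hold 14 to 29 and Igf2 windows 1 to 22, although Igf2 had few reads. No relation of CpG number to level was tested. The cyclic AMP response element TGACGTCA, searched on both strands, is in the first window of Meg3 and in that of Peg3, and in 1.55% of all windows. The hexamer TGCCGC, the core read by the imprint guardian ZFP57, is in 1 Meg3 window and in 2 of the 3 Mest windows, which overlap each other, and it is in 8.68% of all windows. The YY1 core GCCATNTT is in none of the 19 windows of the 9 members found in the RefSeq table and in 3.91% of all windows. These are matches of letters, and no binding or methylation was measured here.

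Kit had 5029 to 8384 reads per library. Transcripts of mature lineages were present too. The 6 neutrophil markers summed to 48425 to 74458 CPM (counts scaled to library size), against 410 to 908 for 8 erythroid, 294 to 599 for 6 monocyte and macrophage, 172 to 263 for 6 T and NK cell, and 40.7 to 142 for 6 B cell markers. Nkg7 made up most of the T and NK cell sum. Its mean was 3543 normalized counts, and those of the other T and NK markers ran from 6.23 (Cd3e) to 49.0 (Cd3d). Car1 was the highest erythroid marker, with a mean of 4528. Normalized Kdm6b counts were lower in each Kdm6bΔ/+ library (1346 to 1622) than in each WT library (1869 to 2372), and lower in each Asxl1Y588XTg Kdm6bΔ/+ library (1649 to 1909) than in each Asxl1Y588XTg library (2187 to 2303). Library totals ran from 14451522 to 23482563 reads. Y-linked transcripts marked 0 of 3 WT, 2 of 3 Kdm6bΔ/+, 1 of 3 Asxl1Y588XTg, and 3 of 3 Asxl1Y588XTg Kdm6bΔ/+ libraries, so for the last genotype against WT genotype and sex-linked transcripts cannot be told apart. In bulk RNA, fewer cells of a type and less RNA per cell cannot be told apart. Normalized counts below are counts scaled to the mean library size, and a gene is called where edgeR gave an adjusted p-value below 0.05 together with a fold of more than 1.5.

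Per kilobase of exon the members covered a wide range. Over the 12 libraries the mean level in TPM, which is reads per exon length scaled to their sum over all genes, was 47.5 for Igf2r, 9.72 for Grb10, 2.99 for Gnas, 0.990 for Ndn, 0.836 for Mest, and 0.218 for Dlk1. The rest were lower still, with 0.0755 TPM for H19, 0.0457 for Igf2, 0.0291 for Meg3, and 0.0236 for Peg3. In WT cells the order from Igf2r over Grb10 to Gnas exceeded the spread between mice, with 48.5 ± 7.19, 10.7 ± 1.99, and 2.91 ± 0.172 TPM (mean ± SD, n = 3). Mest at 0.852 ± 0.389 and Ndn at 0.619 ± 0.486 TPM did not differ beyond their spread, and the 5 genes below them did not differ among themselves. In Asxl1Y588XTg cells Ndn reached 2.19 ± 0.186 and Dlk1 0.646 ± 0.217 TPM, next to 0.774 ± 0.238 for Mest. Only Igf2r, Grb10, and Gnas had more than 100 reads in every library, and 6 of the 10 genes, Igf2r, Dlk1, Grb10, Ndn, Mest, and Gnas, passed the filter on low counts and were tested. Dlk1 passed through the Asxl1Y588XTg libraries, where it was high, so a difference was bound to accompany its passing.

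**Figure D1:**
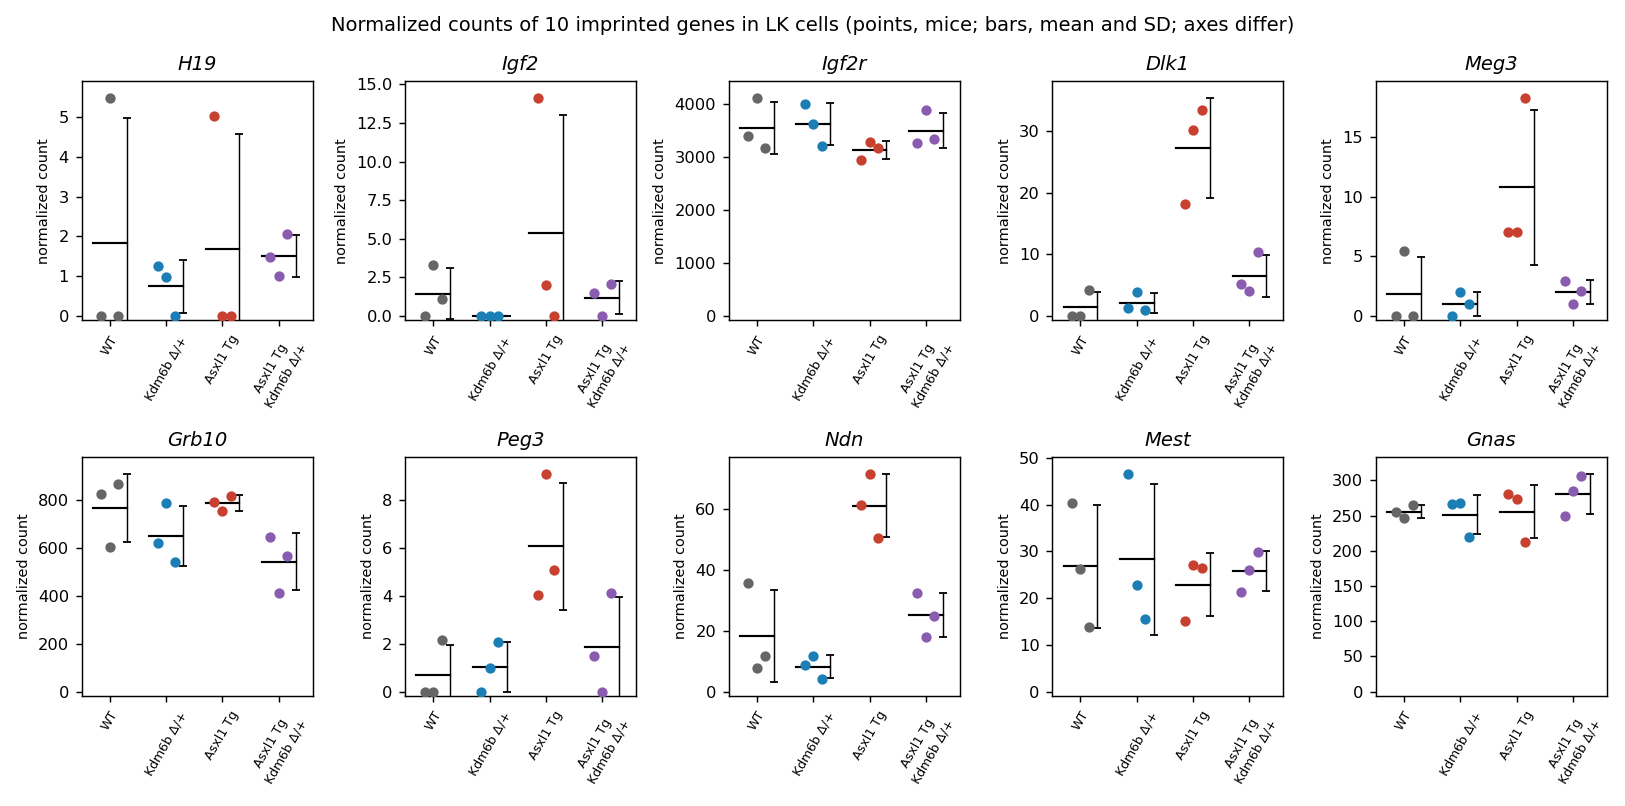
Normalized counts (y axes, which differ between panels and start at 0) of the 10 imprinted genes in LK cells of WT, Kdm6bΔ/+, Asxl1Y588XTg, and Asxl1Y588XTg Kdm6bΔ/+ mice. Points are mice, horizontal bars the mean and vertical bars the SD of 3 mice; Dlk1, Meg3, Peg3, and Ndn were higher in each Asxl1Y588XTg library than in each WT library, while Igf2r, Mest, and Gnas overlapped in all genotypes.

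Of the tested members Dlk1 had the largest fold change in Asxl1Y588XTg against WT cells. The reads were 0, 0, and 4 in WT, 1, 4, and 1 in Kdm6bΔ/+, 18, 30, and 33 in Asxl1Y588XTg, and 7, 4, and 10 in Asxl1Y588XTg Kdm6bΔ/+ cells. All 3 Asxl1Y588XTg libraries were above every other library, and the 3 with the Kdm6b deletion on top lay between them and WT, overlapping the latter only at 4 reads. The pooled reads of Asxl1Y588XTg were 20.03-fold those of WT (95% interval from counting error alone 7.53 to 75.3). The log2 fold change of Asxl1Y588XTg against WT was 4.18 ± 0.997 (SE, n = 3 per genotype), with an edgeR adjusted p-value of 0.0857, so Dlk1 was not called. Its adjusted p-value was under 0.05 in 4 of the 12 alternative analyses (0.00405 with DESeq2, 0.0149 with all 12 libraries in 1 fit, 0.000248 without the filter, and 0.0319 with Y-linked transcripts as a covariate) and 0.0518 to 0.280 with 1 library left out. Dlk1 had passed the filter only through its Asxl1Y588XTg libraries. A difference from WT was bound to accompany its passing, so these values are a description.

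In Asxl1Y588XTg Kdm6bΔ/+ against Asxl1Y588XTg cells Dlk1 fell, with a log2 fold change of -2.05 ± 0.45 (SE, n = 3 per genotype) and an edgeR adjusted p-value of 0.0468. The means were 6.49 ± 3.36 against 27.2 ± 8.07 normalized counts (SD, n = 3), and the groups did not overlap. Dlk1 was the 1 member called, out of 6 tested, where 1.59% of all tested genes were called lower and 0.145% higher. It had passed the filter on low counts only through its Asxl1Y588XTg libraries. A fall from them was bound to accompany its passing, so its fold change and call are a description. The call stood close to the threshold. Among the fits that lost it were those without Asxl1Y588XTg library 2 (adjusted p = 0.0886) or 3 (0.119), without Asxl1Y588XTg Kdm6bΔ/+ library 1 (0.154) or 2 (0.193), with all 12 libraries in 1 edgeR fit (0.237), and with the Y-linked covariate (0.666), while the log2 fold change stayed between -2.51 and -1.83.

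Ndn was the other tested member whose Asxl1Y588XTg libraries stood apart. Its reads were 39, 7, and 11 in WT, 7, 12, and 4 in Kdm6bΔ/+, 61, 71, and 50 in Asxl1Y588XTg, and 44, 18, and 24 in Asxl1Y588XTg Kdm6bΔ/+ cells. The first WT library was high for its genotype and close to the Asxl1Y588XTg Kdm6bΔ/+ libraries. The log2 fold change was 1.71 ± 0.53 for Asxl1Y588XTg against WT (edgeR adjusted p = 0.221) and -1.25 ± 0.29 for Asxl1Y588XTg Kdm6bΔ/+ against Asxl1Y588XTg (adjusted p = 0.0579; SE, n = 3 per genotype), and neither was called. Without WT library 1 the first value was 2.63 and was called (adjusted p = 0.0186), and DESeq2 called the second (0.0275). Of the 6 tested members, these 2, Dlk1 and Ndn, were higher in all 3 Asxl1Y588XTg libraries than in every WT library, where 10.5% of all tested genes were. Dlk1, Ndn, and Grb10, 3 of the 6, were lower in all Asxl1Y588XTg Kdm6bΔ/+ than in every Asxl1Y588XTg library, where 14.1% of all tested genes were. Both counts include Dlk1, which passed the filter only through its Asxl1Y588XTg libraries, so its standing apart was bound to accompany its passing.

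None of the 6 tested members was called in Asxl1Y588XTg against WT cells, where 1.58% of all tested genes were called higher and 0.0316% lower. At an unadjusted p-value under 0.05 edgeR had 2 members, Dlk1 and Ndn, and DESeq2 called 1, Dlk1. Of all 15825 tested genes, 1480 had an unadjusted edgeR p-value under 0.05. Dlk1 had passed the filter only through its Asxl1Y588XTg libraries. The median log2 fold change of the 6 was 0.02, beside -0.01 over all genes tested. For the Kdm6b deletion on the Asxl1Y588XTg background the median was -0.19, beside -0.0043.

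**Figure D2:**
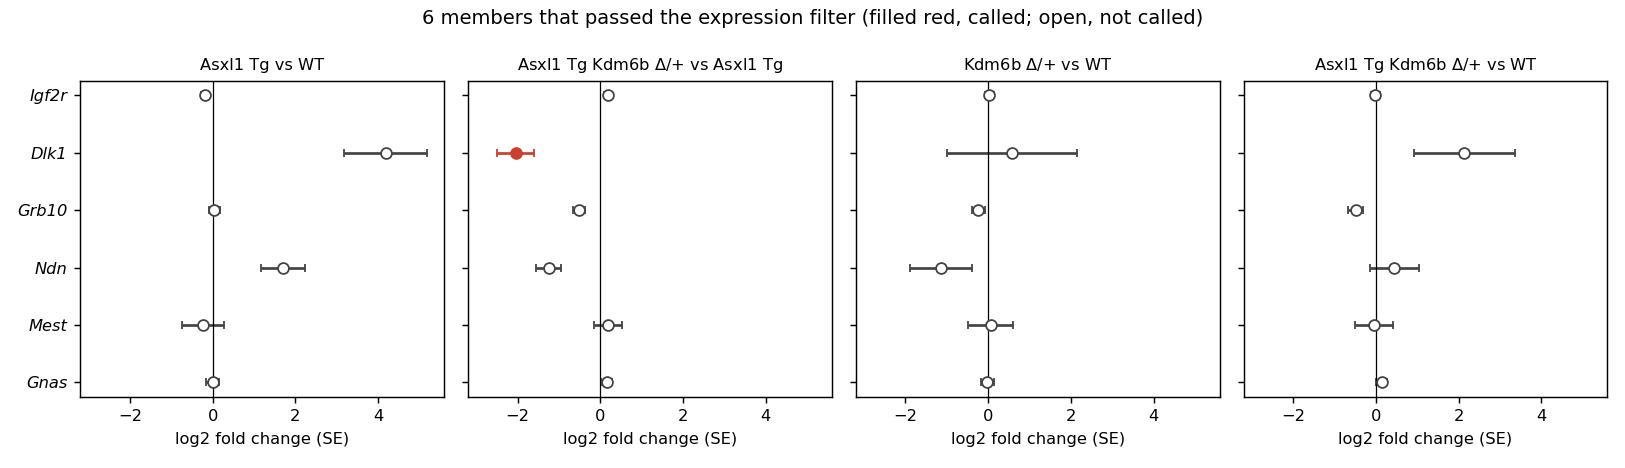
Log2 fold changes (x axis) with SE of the 6 tested members in 4 comparisons of LK cells, fitted with edgeR on 3 mice per genotype; red filled points are called genes. Dlk1 at -2.05 in Asxl1Y588XTg Kdm6bΔ/+ against Asxl1Y588XTg is the 1 called value, and the SE of Dlk1 and Ndn were wide in the comparisons with WT.

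Meg3 and Peg3 were below the filter. Meg3, the maternal RNA next to Dlk1, had 0, 5, and 0 reads in WT, 0, 2, and 1 in Kdm6bΔ/+, 7, 7, and 18 in Asxl1Y588XTg, and 4, 1, and 2 in Asxl1Y588XTg Kdm6bΔ/+ cells. Its Asxl1Y588XTg libraries were above every other library, and the pooled reads were 6.33-fold those of WT (95% counting interval 2.45 to 20.8). Peg3 had 0, 0, and 2 reads in WT, 0, 1, and 2 in Kdm6bΔ/+, 4, 9, and 5 in Asxl1Y588XTg, and 2, 0, and 4 in Asxl1Y588XTg Kdm6bΔ/+ cells. Its Asxl1Y588XTg libraries were above those of WT and overlapped those of Asxl1Y588XTg Kdm6bΔ/+ at 4 reads, and the pooled reads were 8.90-fold those of WT (2.13 to 79.1). For both genes the exact two-sided permutation test of Asxl1Y588XTg against WT gave p = 0.1, the smallest that 3 against 3 mice allow. Without the filter, edgeR gave Meg3 a log2 fold change of -2.29 ± 0.71 (SE, n = 3 per genotype) for Asxl1Y588XTg Kdm6bΔ/+ against Asxl1Y588XTg and an adjusted p of 0.0343, and 2.54 ± 1.17 with 0.465 for Asxl1Y588XTg against WT.

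H19 and Igf2, a pair known for its part in HSC quiescence, had few reads in every library. H19 had 0, 5, and 0 reads in WT, 1, 1, and 0 in Kdm6bΔ/+, 5, 0, and 0 in Asxl1Y588XTg, and 2, 1, and 2 in Asxl1Y588XTg Kdm6bΔ/+ cells, with no order among the genotypes (exact permutation p = 1 for each of the 4 comparisons). The pooled ratio of Asxl1Y588XTg to WT was 0.989 (95% counting interval 0.228 to 4.30), and a difference within that interval was not detectable at this depth. Igf2 had 0, 3, and 1 reads in WT, none in Kdm6bΔ/+, 14, 2, and 0 in Asxl1Y588XTg, and 2, 0, and 2 in Asxl1Y588XTg Kdm6bΔ/+ cells. The 14 reads of 1 Asxl1Y588XTg library set its mean, and the genotypes overlapped (exact permutation p = 0.7 against WT).

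Igf2r, Grb10, Mest, and Gnas did not pass the test in Asxl1Y588XTg against WT cells, and their groups overlapped. Normalized Igf2r counts were 3396, 4104, and 3163 in WT, 4002, 3631, and 3209 in Kdm6bΔ/+, 2947, 3285, and 3164 in Asxl1Y588XTg, and 3269, 3881, and 3337 in Asxl1Y588XTg Kdm6bΔ/+ cells, with a log2 fold change of -0.19 ± 0.10 for Asxl1Y588XTg against WT (SE, n = 3 per genotype, edgeR adjusted p = 0.674). Gnas lay between 213 and 306 normalized counts in all 12 libraries, and Mest between 13.9 and 46.5. Their log2 fold changes against WT were -0.0037 ± 0.16 and -0.24 ± 0.50 in Asxl1Y588XTg cells (SE, n = 3 per genotype, edgeR adjusted p = 0.998 and 0.943), with the wider error for Mest.

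Grb10 had a log2 fold change of 0.04 ± 0.14 in Asxl1Y588XTg against WT cells (edgeR adjusted p = 0.966) and a lower level with the deletion. Normalized counts were 825, 603, and 869 in WT, 620, 789, and 543 in Kdm6bΔ/+, 794, 754, and 818 in Asxl1Y588XTg, and 647, 413, and 566 in Asxl1Y588XTg Kdm6bΔ/+ cells. The Asxl1Y588XTg Kdm6bΔ/+ libraries were below each Asxl1Y588XTg library, while the WT and Kdm6bΔ/+ libraries overlapped. The log2 fold change was -0.52 ± 0.15 (SE, n = 3 per genotype) for Asxl1Y588XTg Kdm6bΔ/+ against Asxl1Y588XTg, with an edgeR adjusted p-value of 0.128 and a fold below 1.5, so Grb10 was not called. The adjusted p-value was 0.0255 with DESeq2 and 2.77e-05 without the filter, again with a fold below 1.5, and 0.765 with the Y-linked covariate, where the log2 fold change was -0.36.

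On the WT background the deletion left all 6 tested members uncalled, as it did in Asxl1Y588XTg Kdm6bΔ/+ against WT cells. Of all tested genes, 0.0758% were called higher and 0.019% lower in Kdm6bΔ/+ against WT, and 0.145% higher and 0.0695% lower in Asxl1Y588XTg Kdm6bΔ/+ against WT. In Kdm6bΔ/+ against WT no member had an unadjusted p-value under 0.05 with edgeR, and DESeq2 called none. Ndn had the lowest value, -1.15 ± 0.75 (SE, n = 3 per genotype, adjusted p = 1), with the first WT library again the high one. In Asxl1Y588XTg Kdm6bΔ/+ against WT, Dlk1 had a log2 fold change of 2.14 ± 1.21 (adjusted p = 0.795) and Grb10 of -0.48 ± 0.18 (0.661), the 1 member with an unadjusted p-value under 0.05, and DESeq2 called none. Of all 15825 tested genes, 1075 had such an unadjusted edgeR p-value. For the difference of the deletion's effect between the backgrounds no tested member was called, with 0% of all tested genes called higher and 0.0126% lower for that difference, no member at an unadjusted p-value under 0.05, and none called by DESeq2. For Dlk1 it was -2.66 (adjusted p = 0.749) and for Ndn -0.12 (0.986), on the log2 scale, so the fall of Dlk1 in Asxl1Y588XTg cells is not shown to differ from its value on the WT background. Dlk1 had 0 to 4 reads per WT and 1 to 4 per Kdm6bΔ/+ library. A fall on the WT background could hardly be seen at that level, so the test cannot decide the question for Dlk1.

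The rest of the Dlk1-Dio3 region on chromosome 12 was also read at low levels. Rian (chr12:109603940-109661716), downstream of Meg3, had 0, 6, and 1 reads in WT, 5, 2, and 2 in Kdm6bΔ/+, 28, 23, and 42 in Asxl1Y588XTg, and 3, 4, and 4 in Asxl1Y588XTg Kdm6bΔ/+ cells. Its Asxl1Y588XTg libraries were above all others, and the Asxl1Y588XTg Kdm6bΔ/+ libraries were within the range of WT. Rian passed the filter on low counts only through the Asxl1Y588XTg libraries, so a difference was bound to accompany its passing, and its fold changes are a description. Rian fell in Asxl1Y588XTg Kdm6bΔ/+ against Asxl1Y588XTg cells, with a log2 fold change of -3.16 ± 0.45 (SE, n = 3 per genotype, edgeR adjusted p = 0.00874), and had 3.61 ± 0.89 (0.0954) against WT, which was not called. The paternally expressed Rtl1 had reads in 2 of 3 Asxl1Y588XTg (4 and 3) and 2 of 3 Asxl1Y588XTg Kdm6bΔ/+ libraries (1 and 2) and in no other. Mirg, the last of the noncoding RNAs, had 18 reads in 1 WT library, 1, 2, and 4 in Asxl1Y588XTg, and none in Asxl1Y588XTg Kdm6bΔ/+ cells, and Dio3 had no read. The 3 genes whose profile over the 12 libraries was nearest to that of Dlk1, by the root mean square distance of standardized log2 counts, were Matn4 (0.184), Clu (0.259), and Mink1 (0.265). Matn4, an extracellular matrix protein gene, had 0, 1, and 10 reads in WT, 67, 125, and 116 in Asxl1Y588XTg, and 28, 19, and 25 in Asxl1Y588XTg Kdm6bΔ/+ cells. These genes were picked for their likeness to Dlk1, so their values are given with no test.

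**Figure D3:**
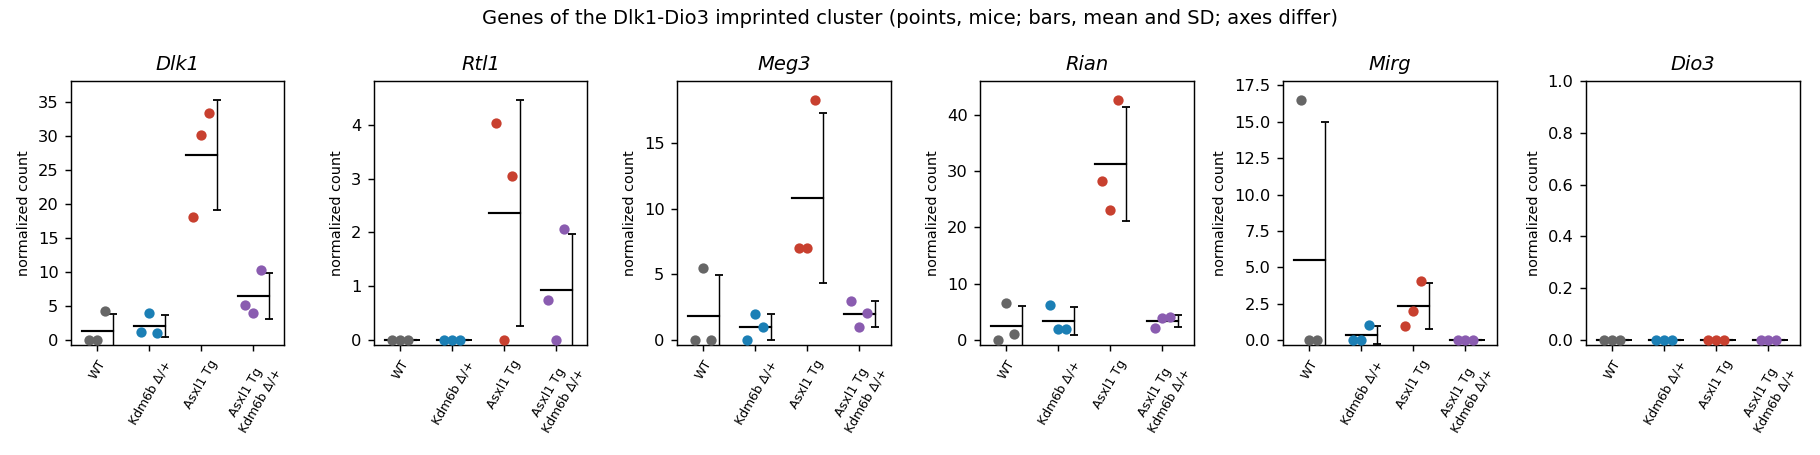
Normalized counts (y axes, which differ between panels) of 6 genes of the Dlk1-Dio3 imprinted region (Rtl1 is drawn beside Dlk1). Points are mice, bars the mean and SD of 3 mice; Dlk1, Meg3, and Rian were highest in all 3 Asxl1Y588XTg libraries, Mirg was highest in 1 WT library, and Dio3 had no read.

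Of 57 other imprinted genes in the table, 33 were tested, 15 had reads but did not pass the filter, and 9 had none. In Asxl1Y588XTg against WT cells 2 of the 33 were called, both higher, where 1.58% of all tested genes were called higher, and 22 had a positive log2 fold change, with a median of 0.12 beside -0.01 over all genes tested. Cdkn1c, which encodes the cell cycle inhibitor p57 and is read from the maternal copy, shares 30.7% of its exon bases with an antisense gene. It had 13, 9, and 13 reads in WT, 14, 13, and 16 in Kdm6bΔ/+, 51, 80, and 56 in Asxl1Y588XTg, and 56, 27, and 38 in Asxl1Y588XTg Kdm6bΔ/+ cells. Its lowest Asxl1Y588XTg library was more than 3 times the highest WT library in reads, and it rose by 2.39 ± 0.39 (log2, SE, n = 3 per genotype, edgeR adjusted p = 0.0146). With the deletion its log2 fold change against Asxl1Y588XTg was -0.79 ± 0.28 (adjusted p = 0.201) and was not called. Ppp1r9a, a neuronal actin-binding protein gene of the Peg10 region, rose by 1.23 ± 0.19 (adjusted p = 0.0112) and fell with the deletion by 0.99 ± 0.13 (0.00618), with 155, 90, and 128 reads in WT, 278, 285, and 317 in Asxl1Y588XTg, and 201, 133, and 155 in Asxl1Y588XTg Kdm6bΔ/+ cells. Rian and Ppp1r9a were the 2 of 33 called in that comparison, both lower, where 1.59% of all tested genes were called lower, and Rian had passed the filter only through its Asxl1Y588XTg libraries. The median was -0.13 beside -0.0043. The count of 2 in Asxl1Y588XTg against WT went to 1 without WT library 3 or Asxl1Y588XTg library 2 (Cdkn1c with an adjusted p of 0.0552 and 0.105) and to 0 without Asxl1Y588XTg library 3 (Cdkn1c 0.0543, Ppp1r9a 0.0563), and the count of 2 for the deletion went to 1 without Asxl1Y588XTg Kdm6bΔ/+ library 1 (Rian 0.0573) or with all 12 libraries in 1 fit (Rian 0.0557) and to 0 with the Y-linked covariate (Rian 0.289, Ppp1r9a 0.0669). In Kdm6bΔ/+ against WT, Asxl1Y588XTg Kdm6bΔ/+ against WT, and the difference of effects, none of the 33 was called by edgeR or DESeq2, and 0, 2, and 7 had an unadjusted edgeR p-value under 0.05. Of all 15825 tested genes, 552, 1075, and 1087 had such a p-value in the same order.

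**Figure D4:**
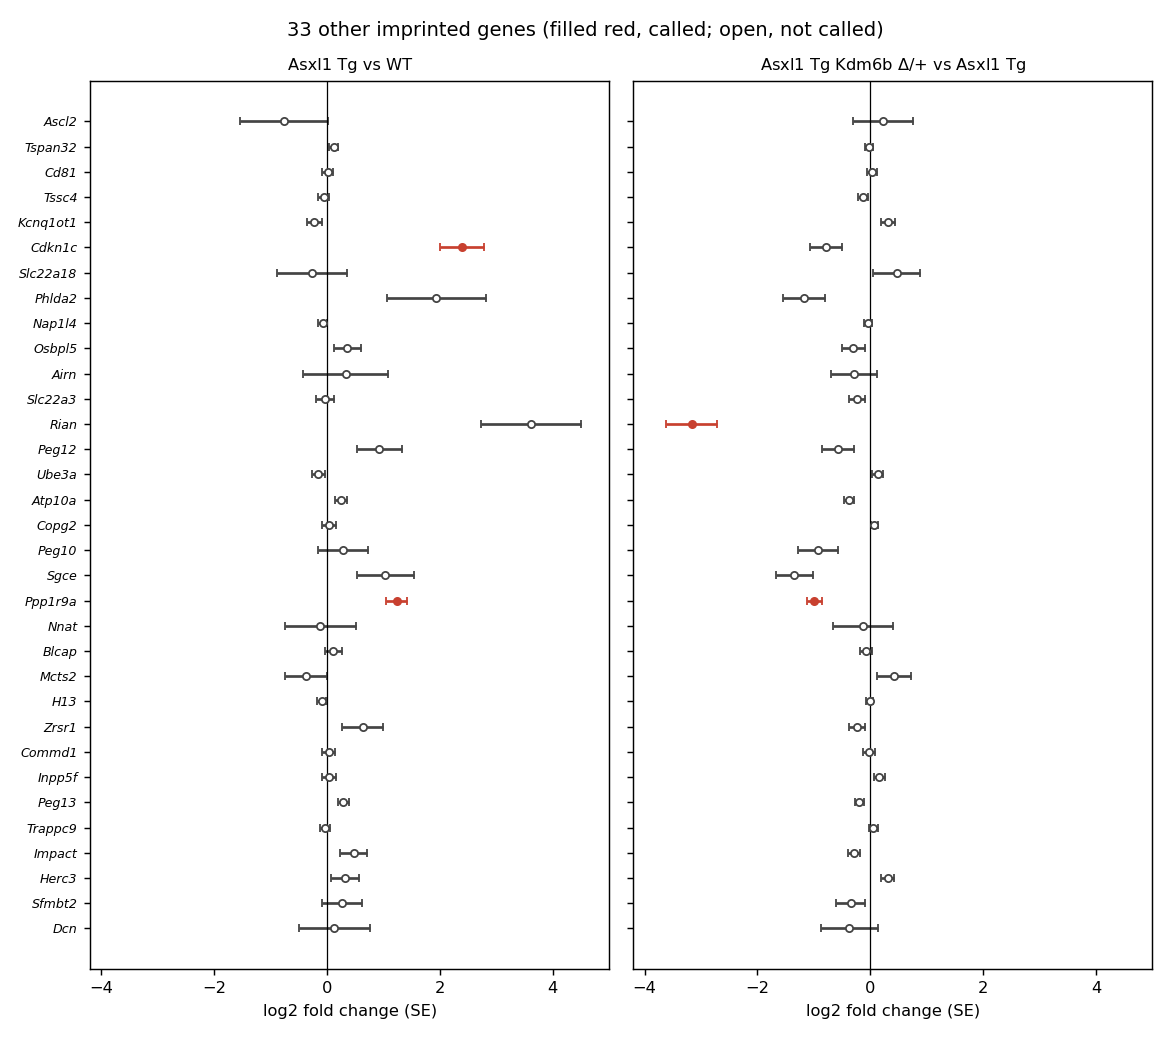
Log2 fold changes (x axes) with SE of the 33 other imprinted genes that were tested, in Asxl1Y588XTg against WT (left) and Asxl1Y588XTg Kdm6bΔ/+ against Asxl1Y588XTg LK cells (right); red filled points are called genes. Cdkn1c at 2.39 and Ppp1r9a at 1.23 were called on the left, Rian at -3.16 and Ppp1r9a at -0.99 on the right, and most other genes lie near 0.

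Snrpn, Asb4, Zdbf2, and Cobl, 4 of the 15 imprinted genes under the filter, had higher normalized counts in each Asxl1Y588XTg library than in each WT library. They were chosen after their values were seen and are given as values. The share of all genes under the filter that did the same was not computed, so the count is a description. Snrpn, a splicing protein gene of the same chromosome 7 region as Ndn that shares 27.3% of its exon bases with genes of its strand, had no read in WT, 1 in Kdm6bΔ/+, 8, 14, and 9 in Asxl1Y588XTg, and 3, 2, and 1 in Asxl1Y588XTg Kdm6bΔ/+ cells. Asb4, near Ppp1r9a on chromosome 6, had 0, 0, and 3, then 1, 0, and 3, then 28, 12, and 7, and then 2, 1, and 3 reads in the same order of genotypes. Zdbf2 had no read in WT and Kdm6bΔ/+, 15, 4, and 2 in Asxl1Y588XTg, and 1, 0, and 3 in Asxl1Y588XTg Kdm6bΔ/+ cells. Cobl, next to Grb10, had 0, 4, and 0 reads in WT, 0, 0, and 1 in Kdm6bΔ/+, 15, 7, and 7 in Asxl1Y588XTg, and 5, 2, and 12 in Asxl1Y588XTg Kdm6bΔ/+ cells, and the last 2 genotypes overlapped. Klf14 had 7 reads in 1 WT library and none elsewhere. Magel2, which lies beside Ndn, had no read, and Mkrn3, next to it, had 12, 1, and 6 in WT and 8, 6, and 1 in Asxl1Y588XTg cells.

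Of 8 genes that keep imprints in place (Zfp57, Zfp445, Trim28, Dnmt1, Uhrf1, Ctcf, Smchd1, and Ehmt2) edgeR called 0 in each comparison, with 0 at an unadjusted p-value under 0.05. In Asxl1Y588XTg against WT cells, the log2 fold changes of the maintenance methylase Dnmt1 and its partner Uhrf1 were 0.03 ± 0.08 and -0.06 ± 0.07, those of the ZFP57 corepressor Trim28 and of Zfp445 -0.06 ± 0.09 and -0.10 ± 0.10, and those of Ctcf and Smchd1 -0.04 ± 0.08 and -0.07 ± 0.08 (SE, n = 3 per genotype). The median of the 8 was -0.05, beside -0.01 over all genes tested, and 0.0012 for the deletion on the Asxl1Y588XTg background. Zfp57 itself had 12, 3, and 3 reads in WT and 6, 22, and 12 in Asxl1Y588XTg cells, which overlapped. Of 12 genes of IGF signalling, 9 were tested and edgeR called 0 in each comparison, with 1 lower in Asxl1Y588XTg against WT (Igf2bp3) and 2 higher with the deletion (Igf1r and Lin28a) at an unadjusted p-value under 0.05. Of all 15825 tested genes, 1480 and 2444 had such a p-value in these comparisons, in either direction. DESeq2 called 0 in both lists, and Igf1 alone was called higher with the deletion without the filter or without Asxl1Y588XTg library 1. The receptors Igf1r and Insr had log2 fold changes of -0.07 ± 0.10 and -0.05 ± 0.10 against WT, Irs2, which relays their signal, 0.09 ± 0.11, Igfbp4, which binds IGFs, -0.07 ± 0.08, and Lin28a, a fetal RNA-binding protein, -0.10 ± 0.16.

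Of 12 genes known for stem cell quiescence, of which Cdkn1c is also imprinted, all were tested. Their median log2 fold change was 0.31 in Asxl1Y588XTg against WT cells, beside -0.01 over all genes tested. With the deletion on that background the median was -0.25, beside -0.0043. There 2 were called, both lower, where 1.59% of all tested genes were called lower. Beside Cdkn1c, the angiopoietin receptor Tek rose in Asxl1Y588XTg against WT cells by 1.81 ± 0.26 (log2, SE, n = 3 per genotype, edgeR adjusted p = 0.00835). Tek fell with the deletion by 1.39 ± 0.20 (adjusted p = 0.00861), and so did Nr4a1, an immediate early nuclear receptor, by 1.44 ± 0.20 (0.0232). Cdkn1a and Cdkn1b, the other 2 inhibitors of the p57 family, had 0.55 ± 0.16 (0.176) and -0.02 ± 0.11 (0.976) against WT. Egr1 and Nr4a1 had 1.2 ± 0.36 (0.327) and 1.2 ± 0.26 (0.0799). Nr4a1 was not called without Asxl1Y588XTg library 1 (adjusted p = 0.0674) or 3 (0.0512) or Asxl1Y588XTg Kdm6bΔ/+ library 3 (0.0818), and neither Tek (0.0717) nor Nr4a1 (0.162) was called lower with the Y-linked covariate.

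The markers of HSCs differed in the same comparisons. Of 10 markers (Hlf, Mecom, Fgd5, Procr, Slamf1, Ly6a, Ctnnal1, Hoxb5, Vwf, and Meis1), 8 were called higher in Asxl1Y588XTg against WT and 6 lower in Asxl1Y588XTg Kdm6bΔ/+ against Asxl1Y588XTg cells, and none was at 0. Of all tested genes, 1.58% were called higher in the first comparison and 1.59% lower in the second. Hoxb5, 1 of the 8, had 4 reads over the WT and 81 over the Asxl1Y588XTg libraries. It passed the filter through the latter, so a difference was bound to accompany its passing. The summed level of the 10 markers was 104 to 144 CPM in WT, 98.5 to 107 in Kdm6bΔ/+, 322 to 561 in Asxl1Y588XTg, and 138 to 216 in Asxl1Y588XTg Kdm6bΔ/+ libraries. The 8 became 5 without WT library 2 or 3 or Asxl1Y588XTg library 1 or 2, and the 6 became 2 without Asxl1Y588XTg library 2 or Asxl1Y588XTg Kdm6bΔ/+ library 1 or 2 and with the Y-linked covariate. The 6 endothelial markers, none at 0, summed to 18.2 to 27.5 CPM in WT, 27.1 to 31.2 in Kdm6bΔ/+, 47.8 to 59.0 in Asxl1Y588XTg, and 27.9 to 41.7 in Asxl1Y588XTg Kdm6bΔ/+ libraries, with 1 of 6 called higher and 1 lower in the same comparisons (Tie1 both times). The 6 megakaryocyte markers, none at 0, summed to 50.5 to 93.4, 60.2 to 70.1, 125 to 340, and 97.9 to 140 CPM in that order, with 0 of 4 tested called in either comparison by edgeR and 1 in the first and 0 in the second at an unadjusted p-value under 0.05. Of all 15825 tested genes, 1480 and 2444 had such a p-value in these 2 comparisons. The 10 stromal markers, whose cells can carry Dlk1, Igf2, and H19, lay at 69.8 to 90.8 CPM in WT, 71.4 to 142 in Kdm6bΔ/+, 87.4 to 111 in Asxl1Y588XTg, and 99.1 to 198 in Asxl1Y588XTg Kdm6bΔ/+ libraries, and none was at 0 or called in either comparison, where edgeR had 0 of 9 at an unadjusted p-value under 0.05.

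Relative to the summed HSC markers, Ndn overlapped between Asxl1Y588XTg and WT cells and between Asxl1Y588XTg Kdm6bΔ/+ and Asxl1Y588XTg cells. It amounted to 0.841% ± 0.691 of that sum in WT, 0.459% ± 0.202 in Kdm6bΔ/+, 0.811% ± 0.0846 in Asxl1Y588XTg, and 0.782% ± 0.154 in Asxl1Y588XTg Kdm6bΔ/+ cells (SD, n = 3), and the exact two-sided permutation test gave p = 1 for Asxl1Y588XTg against WT. Dlk1 amounted to 0.0564% ± 0.0978, 0.114% ± 0.0839, 0.379% ± 0.185, and 0.196% ± 0.0658 in the same order, still higher in every Asxl1Y588XTg than in every WT library (exact permutation p = 0.1, the smallest possible) but overlapping between Asxl1Y588XTg and Asxl1Y588XTg Kdm6bΔ/+ (p = 0.2). Meg3 overlapped in both comparisons (exact permutation p = 0.5 and 0.2), and Rian overlapped between Asxl1Y588XTg and WT (exact permutation p = 0.2) and was lower with the deletion in every library (exact permutation p = 0.1). Dlk1 and Rian had passed the filter only through their Asxl1Y588XTg libraries, so their values on this scale are a description. Cdkn1c relative to the markers was 0.545% ± 0.00632 in WT, 0.882% ± 0.174 in Kdm6bΔ/+, 0.832% ± 0.160 in Asxl1Y588XTg, and 1.12% ± 0.0897 in Asxl1Y588XTg Kdm6bΔ/+ cells, so against Asxl1Y588XTg it was higher with the deletion in every library on this scale and lower in normalized counts. Against WT, Cdkn1c was higher in every Asxl1Y588XTg library on this scale (exact permutation p = 0.1). Snrpn, chosen after its values were seen, had a mean of 0% in WT, 0.137% in Asxl1Y588XTg, and 0.0582% in Asxl1Y588XTg Kdm6bΔ/+ cells. The paper names Meis1 and Hoxb5, which are in the marker sum, among the genes dysregulated in Asxl1Y588XTg cells. By flow cytometry, the paper reports higher percentages of long-term and short-term HSCs in Asxl1Y588XTg than in WT bone marrow. It reports lower ones with the Kdm6b deletion on the Asxl1Y588XTg background. Its methods describe phenotypic analyses of moribund mice and age-matched controls, while the RNA-Seq used Asxl1Y588XTg mice called preleukemic. Whether the sum follows the number of HSCs was not tested. Vwf made up 24.4% to 59.2% of the marker sum. With the other 9 markers, a choice made after the data were seen, the ratio of the Asxl1Y588XTg to the WT mean went from 0.964 to 1.06 for Ndn and from 6.71 to 7.81 for Dlk1, and Cdkn1c with and without the deletion on the Asxl1Y588XTg background then overlapped (exact permutation p = 0.2). For Rian that ratio went from 3.39 to 4.36, with an exact permutation p of 0.1 for Asxl1Y588XTg against WT. No such ratio was computed for Peg3, or against the endothelial or megakaryocyte markers, whose part in these differences was not tested.

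**Figure D5:**
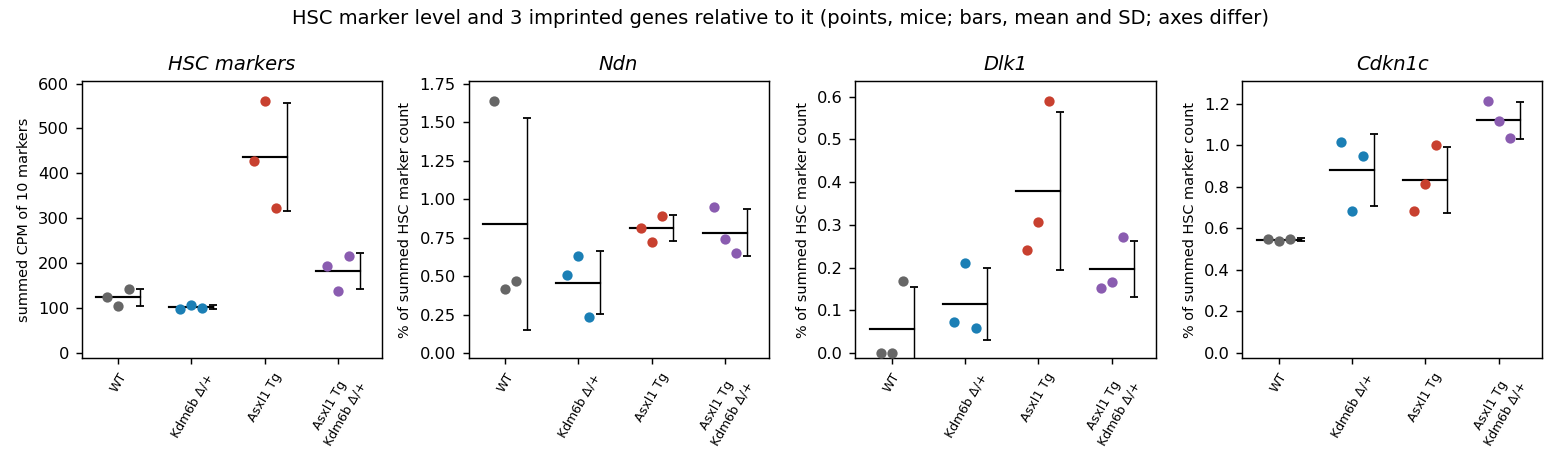
Summed CPM of 10 HSC markers (left) and counts of Ndn, Dlk1, and Cdkn1c as a percentage of the summed HSC marker count in LK cells of the 4 genotypes. Points are mice, bars the mean and SD of 3 mice; the marker sum was highest in the Asxl1Y588XTg libraries (322 to 561 CPM), the share of Ndn overlapped in the comparisons made, and that of Dlk1 was higher in each Asxl1Y588XTg library than in each WT library.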

How the data were processed

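The study measured RNA of LK cells by RNA-Seq. The authors trimmed reads (Trimmomatic), aligned them to mm10 (STAR), and deposited raw counts per gene (HTSeq), as the submitters' notes and the methods state; the annotation and strand of counting are not given in the sources used here. The methods name a KAPA stranded kit and a HiSeq sequencer, and the labels an NEB Ultra kit and a NextSeq. Samples were grouped by the labelled genotype, and all 12 columns were used. The filterByExpr function of edgeR 4.0.16 (R 4.3.3) kept 15825 of 55291 genes, and 22587 had no read. Counts were scaled by TMM, each pair of genotypes was fitted to its 6 libraries with the robust quasi-likelihood test, and the difference of deletion effects to all 12. Adjusted p-values are Benjamini-Hochberg values over every tested gene; SE was derived from F. TPM used GENCODE vM21 exon lengths. Exact permutation tests were two-sided over 20 splits, and intervals cover counting error only. Each library came from 1 mouse. The members, the gene lists, and the rule for named genes (all members, listed genes that were called or else up to 6 with the largest change at a mean of 100 normalized counts, and the 3 genes nearest to a called member) were chosen with earlier results of these data known. A listed quiescence gene is not reported here. The steps were tested on simulated counts. Alternatives were DESeq2 1.42.0, all 12 libraries in 1 fit, RLE scaling, no filter, the replicate number as a block, Y-linked transcripts as a covariate, and each library left out; the HSC marker sum without Vwf was added after the data were seen. Depth ran from 14451522 to 23482563 reads, so 1 read is about 1 normalized count, and precision is limited by counting for H19, Igf2, Meg3, Peg3, and Dlk1.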

Additional observations from a re-analysis of the deposited data

How the results depend on the processing

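Of the values of single genes, 33 of 486 changed sign, none of them called. No member was called under any alternative in Kdm6bΔ/+ against WT, Asxl1Y588XTg Kdm6bΔ/+ against WT, or the difference of deletion effects. In Asxl1Y588XTg against WT the count of members called was 0; it was 1 with DESeq2, with all 12 libraries, and with the Y-linked term (Dlk1 each time), 2 without the filter (Dlk1 and Ndn), and 0 to 1 with 1 library left out. For the deletion on the Asxl1Y588XTg background it was 1; it was 2 with DESeq2, 3 without the filter (Dlk1, Meg3, and Ndn), 0 with all 12 libraries and with the Y-linked term, and 0 to 1 with 1 library left out. The replicate numbers share only a number (Pearson r of same-numbered libraries -0.12 to 0.08, median -0.04, 18 pairs), and with the number as a replicate block the count was 0 in both comparisons (Dlk1 adjusted p = 0.176 and 0.106), while 1 and 2 of the other imprinted genes were called (Cdkn1c lost in Asxl1Y588XTg against WT, adjusted p = 0.0818). The cause of these changes was not tested. Dlk1, which passed the filter only through its Asxl1Y588XTg libraries, is in these counts as a description.

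Signs changed for Mest with the Y-linked term (-0.094 for the deletion on the Asxl1Y588XTg background and -0.23 on WT) and with the replicate block (0.029 for Asxl1Y588XTg Kdm6bΔ/+ against WT), and for Igf2r with the Y-linked term (-0.00703, deletion on WT) and without the filter (0.0037, Asxl1Y588XTg Kdm6bΔ/+ against WT). With 1 library left out, log2 values for Asxl1Y588XTg against WT were -0.54 to 0.18 for Mest, -0.10 to 0.14 for Grb10, and -0.074 to 0.12 for Gnas, and for the deletion on Asxl1Y588XTg -0.044 to 0.32 for Mest. For the deletion on WT they were -0.052 to 0.14 for Igf2r, -0.26 to 4.11 for Dlk1, -0.48 to 0.48 for Mest, and -0.077 to 0.072 for Gnas. For Asxl1Y588XTg Kdm6bΔ/+ against WT they were -0.36 to 0.37 for Mest and -0.088 to 0.11 for Igf2r, and for the difference of effects -0.31 to 0.65 for Mest and -1.05 to 0.26 for Ndn.

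Over all genes, 255 were called in Asxl1Y588XTg against WT, and 473 with DESeq2, 446 with all 12 libraries, 619 without the filter, 101 with the replicate block, and 110 to 251 with 1 library left out. The deletion on Asxl1Y588XTg called 275, and 446, 162, 812, and 71 in the same order, 48 with the Y-linked term, and 56 to 274 with 1 library left out. Kdm6bΔ/+ against WT called 15, and 39, 7, and 53 without the block, 6 with the Y-linked term, and 7 to 26. Asxl1Y588XTg Kdm6bΔ/+ against WT called 34, and 114, 14, 182, and 66 in the first order, 3 with the Y-linked term, and 14 to 50. The difference of effects called 2, and 66 with DESeq2, 258 without the filter, 0 with the Y-linked term, and 0 to 10.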
